A study of Mus musculus with 6 samples.

Results

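Rasgrp4 and Lrrc3b were lower on the closed side of the nose in mice with 1 naris closed, and both are described here beside the 4 relatives in their gene families, Rasgrp1, Rasgrp2, Rasgrp3 and Lrrc3. The 6 genes were taken by symbol from the 24315 rows of the expression table, and each has 1 row. Rasgrp4 and Lrrc3b were chosen from their own closed against open values, since both were among the few rows called in that contrast, so their difference is given here as a description with no test. The other 4 genes were chosen by family and not by their values, and the question asked of them is whether they too were lower on the closed side. All 6 members had a mean of at least 1 FPKM (sequenced fragments per unit of transcript length and of library depth), the floor for testing a row. Rasgrp3 was just above it with a mean of 1.01 FPKM.

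The olfactory mucosa came from wild type C57BL/6 mice on postnatal day 11. There were 3 libraries of closed and 3 of open nostrils, and a deposited sheet pairs them by number, each pair being 1 mouse. How and when the naris was closed is not given in the sources used here. No unoperated mice were analysed here, so a lower closed side cannot be told apart from a higher open side. The libraries held 24958172 to 43584803 reads, of which 93.28% to 96.99% aligned, and closed replicate 1 was the shallowest. That library also stood apart in the share of summed FPKM from small RNA rows, at 11.3%, where the other 5 libraries had 3.47% to 5.27%. Omp, the marker of mature olfactory sensory neurons, stood at 1414 to 2212 FPKM and Cyp2g1, an enzyme of sustentacular cells, at 1129 to 1626 FPKM, so both defining markers of the labelled tissue were present. Because the values are FPKM and not counts, the counting error of a gene is unknown.

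RasGRP proteins are exchange factors that load small GTPases of the Ras family with GTP. They carry calcium-binding EF hands and a C1 domain, which in some members binds the lipid second messenger diacylglycerol. Such members connect phospholipase C with Ras and the ERK kinase cascade. Rasgrp1 is best known from T cells, Rasgrp2 as an activator of Rap1 in platelets, Rasgrp3 from B cells and Rasgrp4 from mast cells and other myeloid cells. Lrrc3b and Lrrc3 encode small membrane proteins with leucine-rich repeats, and human LRRC3B is known as a gene often silenced in tumours.

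The promoters of the Lrrc3 pair are shown because its members differed in level and in their closed against open values. In RefSeq on GRCm38.p6, Lrrc3b starts within chr14:15438938-15439237 and Lrrc3 within chr10:77902487-77902786, both on the minus strand, each window holding 250 bases before the start and 50 after it. Sequences run 5′ to 3′ and capitals mark the GC box, GGGCGG or its reverse complement.
Lrrc3b: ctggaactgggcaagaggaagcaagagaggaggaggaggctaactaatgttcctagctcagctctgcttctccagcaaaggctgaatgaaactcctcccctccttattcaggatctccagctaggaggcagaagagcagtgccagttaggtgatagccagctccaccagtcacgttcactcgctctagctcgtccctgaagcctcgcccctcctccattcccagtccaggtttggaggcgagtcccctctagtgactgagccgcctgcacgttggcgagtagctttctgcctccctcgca
Lrrc3: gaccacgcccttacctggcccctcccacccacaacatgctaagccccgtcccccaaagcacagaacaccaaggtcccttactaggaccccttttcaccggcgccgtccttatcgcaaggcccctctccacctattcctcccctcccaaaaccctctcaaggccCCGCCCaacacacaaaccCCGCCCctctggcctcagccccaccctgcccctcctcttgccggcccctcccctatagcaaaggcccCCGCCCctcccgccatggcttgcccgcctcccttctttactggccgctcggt
The Lrrc3 window held 3 GC boxes and the Lrrc3b window held 0. Of 32851 promoter windows of this length, 35.7% held at least 1. GC content was 57.0% for Lrrc3b and 65.7% for Lrrc3, with 9 and 14 CpG dinucleotides against a median of 7 over all windows. Windows were matched for 5 of the 6 members, all but Rasgrp4, with 1 for Rasgrp1, 2 for Rasgrp2 and 2 for Rasgrp3.

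Other motifs were searched on both strands in these 7 windows. The cyclic AMP response element TGACGTCA is found in 1.79% of all windows and its first 5 letters, TGACG, in 20.8%. The AP-1 site TGANTCA is found in 7.81%, the homeodomain site TAATTA in 5.29% and the Olf1/Ebf consensus in 0.904%. The 7 windows held 0 matches to any of these. TATAAA, in 13.6% of all windows, occurred once, in 1 of the Rasgrp3 windows. The GC box occurred 1 time in the Rasgrp1 window and 6 and 2 times in the Rasgrp2 windows. These letter matches are descriptions of the windows and were not tied to any factor.

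Rasgrp4, the diacylglycerol-responsive exchange factor known from mast cells, stood at 4.12, 5.50 and 4.85 FPKM on the open side of mice 1, 2 and 3 and at 1.54, 1.04 and 1.04 FPKM on their closed side. Every closed library was below every open one. The means were 4.82 ± 0.687 and 1.21 ± 0.291 FPKM (SD, n = 3 each), a difference of 3.995 times. On log2(FPKM + 1) the closed side was -1.40 from the open side. Within mice 1, 2 and 3 the log2 ratio of closed to open FPKM was -1.42, -2.41 and -2.22, so that mouse 1 had the smallest difference, through its higher closed and lower open value. In the GRCm38 annotation the gene (ENSMUSG00000030589.15) lies at chr7:29134851-29153961 on the plus strand.

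Lrrc3b, the leucine-rich repeat protein, stood at 29.9, 32.7 and 38.8 FPKM on the open side of mice 1, 2 and 3 and at 13.9, 15.2 and 11.8 FPKM on their closed side. Again the sides did not overlap. The means were 33.8 ± 4.50 and 13.6 ± 1.73 FPKM, a 2.48-fold difference, or -1.25 on log2(FPKM + 1). Mouse 3 had both the highest open and the lowest closed value, and its log2 ratio was -1.72 against -1.11 and -1.10 in mice 1 and 2. Lrrc3b was the most abundant member by far: 82.9% of the rows of the table had a lower mean, against 49.9% for Rasgrp4. The gene (ENSMUSG00000045201.6) lies at chr14:15357515-15438987 on the minus strand. In such bulk tissue, fewer cells of a type and less RNA per cell cannot be told apart.

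**Figure D1:**
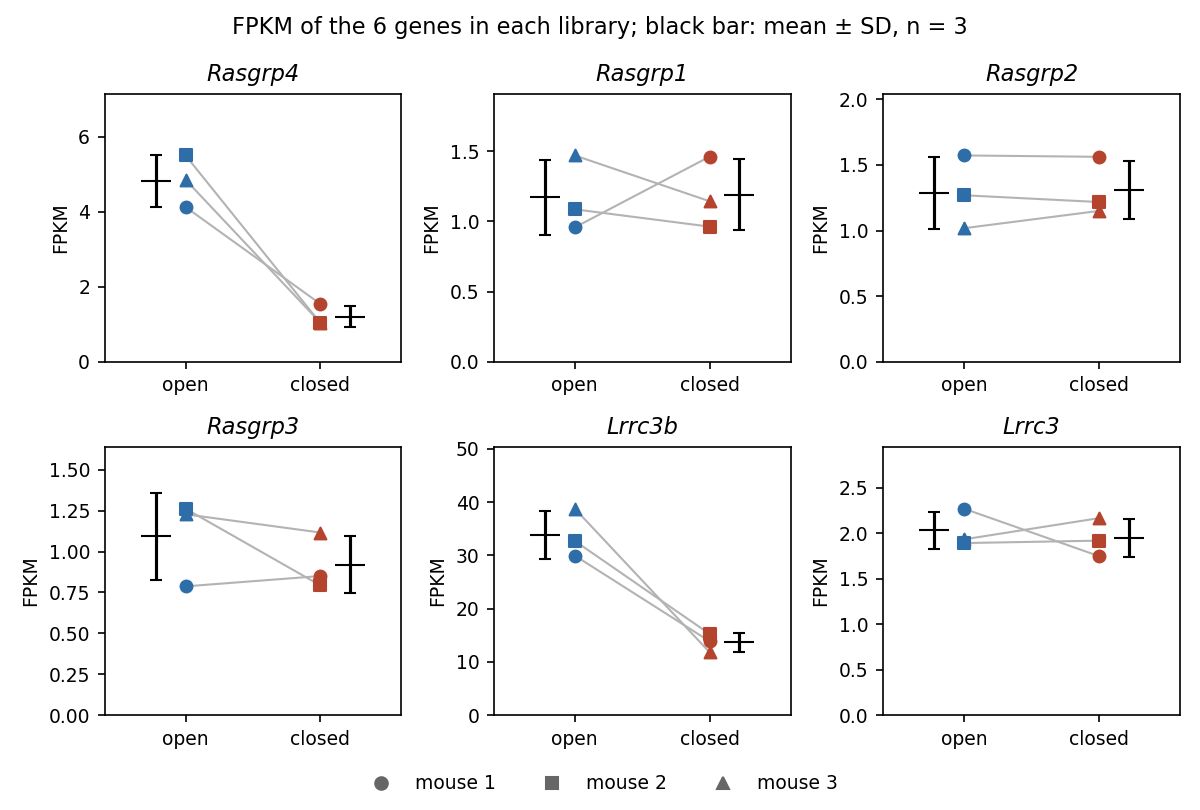
FPKM of the 6 genes (vertical axis, own scale for each gene) in the open and closed library of mice 1, 2 and 3, joined by mouse, with the mean and SD of each side as black bars (n = 3). Open and closed points are apart for Rasgrp4 and Lrrc3b and overlap for the 4 relatives.

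With limma on log2(FPKM + 1) and Benjamini-Hochberg adjustment at 0.05, 6 of 14788 rows were called lower on the closed side (0.0406%) and 1 higher (0.00676%). Since the choice of Rasgrp4 and Lrrc3b used this contrast, nothing is read from their place among the 6. Rasgrp4 was called in 8 of the 19 other settings that kept its row and Lrrc3b in 7 of 20. With the mouse as a block limma called 4 rows lower (0.027%) and 1 higher (0.00676%), and neither gene was among them. These calls show only how the choice of Rasgrp4 and Lrrc3b depends on the setting, and are no test of them. Ranked by log2 change alone, Rasgrp4 was 58th and Lrrc3b 64th from the lowest of all rows tested.

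The 4 relatives did not pass the test, with or without the mouse as a block (limma, 0 of 4, adjusted p = 1 for each). At an unadjusted limma p under 0.05 the count was also 0 of 4, with p from 0.477 to 0.939, beside 215 of all 14788 rows (1.45%). Over all rows, sides that did not overlap were found in 2.09% with the closed side lower and 1.28% with it higher, and in 0 of the 4 relatives. The closed side was lower in 3 of 3 mice in 9.18% of rows and higher in 3 of 3 in 7.41%, and again in 0 of the 4.

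Rasgrp1, the T cell exchange factor, stood at 0.957, 1.09 and 1.47 FPKM on the open side of mice 1, 2 and 3 and at 1.46, 0.963 and 1.14 FPKM on their closed side. It was higher on the closed side in mouse 1 and lower in mice 2 and 3. Its means were 1.17 ± 0.266 and 1.19 ± 0.252 FPKM, and the log2 change was 0.01 (SE 0.16, 95% interval -0.36 to 0.38, limma adjusted p = 1).

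Rasgrp2, the Rap1 exchange factor of platelets, stood at 1.57, 1.27 and 1.02 FPKM on the open side and at 1.56, 1.22 and 1.15 FPKM on the closed side of mice 1, 2 and 3. Both sides of a mouse were close to each other, and the mice had the same order on each side. The means were 1.29 ± 0.277 and 1.31 ± 0.221 FPKM, with a log2 change of 0.02 (SE 0.16, 95% interval -0.34 to 0.38, limma adjusted p = 1).

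Rasgrp3, known from B cells, stood at 0.787, 1.26 and 1.23 FPKM on the open side and at 0.850, 0.793 and 1.12 FPKM on the closed side of mice 1, 2 and 3. It was lower on the closed side in mice 2 and 3, most in mouse 2 with a log2 ratio of -0.67, and higher in mouse 1. The means were 1.09 ± 0.265 and 0.92 ± 0.172 FPKM, with a log2 change of -0.12 (SE 0.16, 95% interval -0.49 to 0.25, limma adjusted p = 1).

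Lrrc3, the leucine-rich repeat relative of Lrrc3b, stood at 2.27, 1.89 and 1.93 FPKM on the open side and at 1.75, 1.92 and 2.16 FPKM on the closed side of mice 1, 2 and 3. It was lower on the closed side in mouse 1 only. The means were 2.03 ± 0.207 and 1.94 ± 0.210 FPKM, with a log2 change of -0.04 (SE 0.13, 95% interval -0.35 to 0.27, limma adjusted p = 1).

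**Figure D2:**
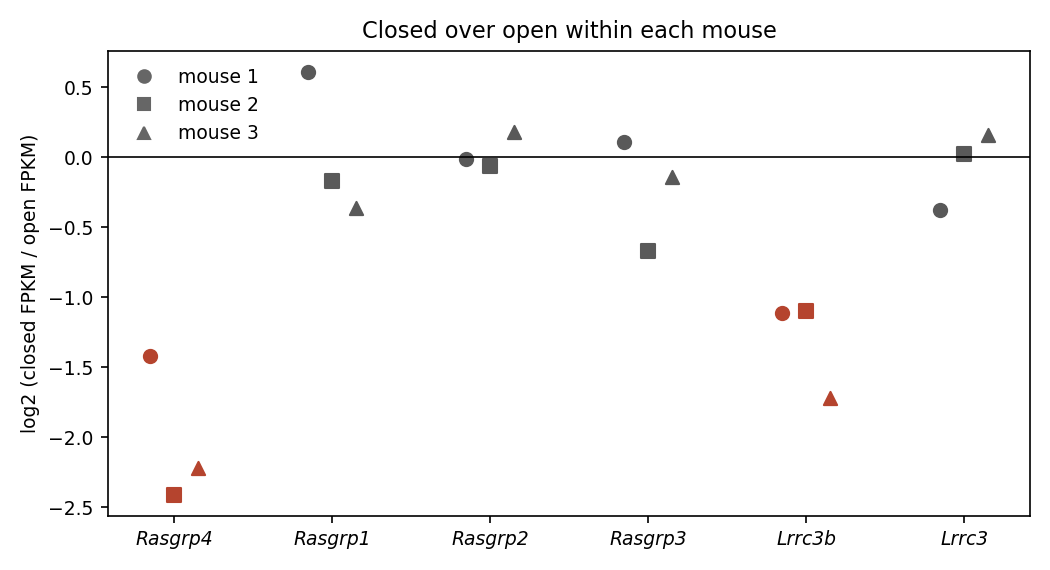
Log2 ratio of closed to open FPKM within each of the 3 mice (vertical axis) for the 6 genes. Rasgrp4 and Lrrc3b lie below 0 in 3 of 3 mice, and the 4 relatives have mice on either side of 0.

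A missed threshold does not show that the relatives were equal on both sides, and their intervals bound what these libraries allow. The log2(FPKM + 1) scale shrinks the change of low genes, so each relative was set against the change that a like fall would give on that scale. For this, its value in each open library was multiplied by the ratio seen in Rasgrp4 (0.250) or Lrrc3b (0.403), and the resulting log2 changes were averaged. That change would have been -0.74 for Rasgrp1, -0.78 for Rasgrp2, -0.71 for Rasgrp3 and -0.74 for Lrrc3. Each value lay below the 95% interval of the gene, also with the mouse as a block, where the lower bounds were -0.38, -0.30, -0.48 and -0.38. A smaller fall, such as one to the lower bound, stays within the intervals. The ratios of Rasgrp4 and Lrrc3b come from genes picked for a large difference, so they may overstate it. Whether a relative differed from Rasgrp4 or Lrrc3b was not tested, because those 2 were chosen for this contrast.

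**Figure D3:**
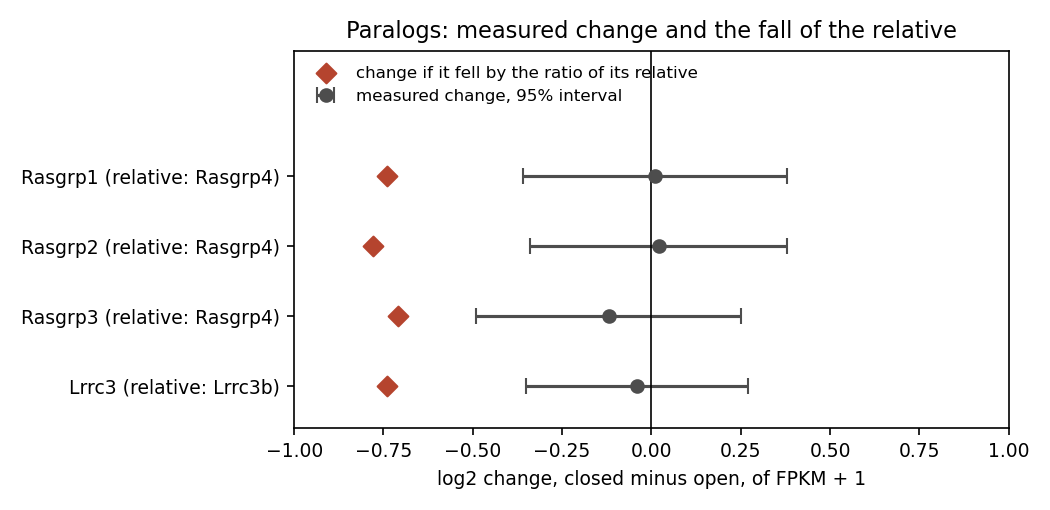
Measured log2 change of FPKM + 1, closed minus open, with its 95% interval from limma for the 4 relatives, and the change each would have had with the closed to open ratio of Rasgrp4 or Lrrc3b (diamonds). The diamonds lie between -0.78 and -0.71, below every interval.

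The order within the Rasgrp family differed between the sides. In the 3 open libraries Rasgrp4 had the highest FPKM of the 4 genes and made up 55.4% to 60.3% of their summed FPKM. In the 3 closed libraries Rasgrp2 was highest and the Rasgrp4 share was 23.4% to 28.5%. That lead was narrow in closed replicate 1, at 1.561 against 1.544 FPKM for Rasgrp4. It was also narrow in closed replicate 3, at 1.149 against 1.143 FPKM for Rasgrp1, where Rasgrp4 was lowest. The summed FPKM of Rasgrp1, Rasgrp2 and Rasgrp3 was 3.55 ± 0.208 on the open side and 3.42 ± 0.450 on the closed side, while that of all 4 was 8.37 ± 0.853 and 4.63 ± 0.720. On the open side the ranges of Rasgrp1, Rasgrp2 and Rasgrp3 overlapped. On the closed side Rasgrp2 was above Rasgrp3 in every library, at 1.15 to 1.56 against 0.793 to 1.12 FPKM, and all other pairs in the family overlapped there, those with Rasgrp4 included. Lrrc3b stood 13.2 to 20.1 times above Lrrc3 on the open side and 5.45 to 7.95 times on the closed side. These are descriptions, since the choice of Rasgrp4 and Lrrc3b sets their direction.

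Shared sequence between the members was small. In the GENCODE M21 transcripts, no stretch of 51 bases, the read length, was common to any pair within a family. The longest common run was 25 bases between Rasgrp4 and Rasgrp1 and 12 bases between Lrrc3b and Lrrc3. Rasgrp4 does overlap Fam98c, which lies on the opposite strand, and 883 of its 7077 distinct stretches of 51 bases also occur in Fam98c transcripts. Whether the library kit marked the strand is not given in the sources used here, so reads from these stretches cannot be assigned to one gene. Fam98c stood at 29.2 ± 4.82 FPKM on the open side and 31.2 ± 4.89 on the closed side (log2 change 0.09, SE 0.16, limma adjusted p = 1), and its part in the Rasgrp4 values was not tested. Lrrc3b shares 367 of 1974 stretches with the opposite-strand transcript B230110C06Rik, which has no row under that symbol.

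No gene next to a member passed the test. The 2 nearest protein-coding genes on each side of each member in RefSeq gave 24 neighbours, of which 19 reached the floor, and limma called 0 of these, with 0 at an unadjusted p under 0.05 (1.45% of all rows) and log2 changes from -0.17 to 0.22. Next to Rasgrp4, Map4k1, a kinase of blood cells, had a log2 change of 0.04 and Spred3, of a family that inhibits the Ras pathway, 0.01. Ryr1, the calcium release channel of skeletal muscle, was below the floor. Next to Lrrc3b, the bicarbonate transporter Slc4a7 had -0.15, the kinase Nek10 0.22, the mitochondrial enzyme Oxsm 0.02 and the deglycosylating enzyme Ngly1 -0.07. None of the 24 had sides that did not overlap, beside 2.09% of all rows with the closed side lower and 1.28% with it higher. At such shares a count of 0 in 24 genes says little.

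Around the RasGRP step, 8 lists of genes covered the Ras and Rap GTPases, other exchange factors, GTPase-activating proteins, phospholipases C, diacylglycerol kinases, other C1 domain proteins, the Raf to ERK kinases and genes that respond to ERK. Of 103 genes listed, 86 reached the floor and limma called 0, with 0 at an unadjusted p under 0.05 (1.45% of all rows). The closed side was below the open side in 62 of 86, against 53.9% of all rows tested. In 1 of 86 (1.16%) the sides did not overlap with the closed side lower, beside 2.09% of all rows. The list medians ran from -0.15 for the ERK-response genes to 0.01 for the diacylglycerol kinases, beside -0.01 for all rows.

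The GTPases that RasGRP proteins load were at 231.2 to 255.4 FPKM in sum on the closed side and at 239.0 to 258.6 on the open side. Their most abundant members had log2 changes of -0.08 (Rap1b), -0.02 (Nras) and -0.01 (Hras). Among the other exchange factors these were 0.11 (Ralgds, which acts on Ral), 0.05 (Rapgef1, which acts on Rap) and 0.05 (Rgl2), and among the GTPase-activating proteins 0.08 (Dab2ip), 0.17 (Rasal2) and -0.06 (Rasa1). None passed the test.

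Of the phospholipases C, which make diacylglycerol, Plcb3 had a log2 change of 0.14, Plcg1 of 0.03 and Plcb4 of -0.16. Of 10 kinases that remove diacylglycerol, 6 reached the floor. The 3 most abundant were near 0, with Dgkd at -0.04, Dgkz at 0.00 and Dgka at -0.01, and Dgki was the highest at 0.21. Below the floor and not tested, Dgkg and Dgkk were lower on the closed side with no overlap. Dgkg stood at 0.996 to 1.25 FPKM open and 0.674 to 0.845 closed, and Dgkk at 0.200 to 0.391 open and 0.0887 to 0.183 closed. The share of such rows below the floor was not worked out. Other C1 proteins, many of which bind the same lipid, included the synaptic protein Unc13b at -0.02, protein kinase C delta (Prkcd) at -0.08 and Chn1 at -0.01. Downstream, the ERK kinase Mapk3 was at -0.02 and Map2k2, which activates it, at 0.03.

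The ERK-response genes had the lowest median, -0.15, and 12 of 15 were below 0, 7 of them in 3 of 3 mice, beside 9.18% of all rows. Their most abundant members were Spry1 (-0.13) and Dusp4 (0.04), both feedback inhibitors of the pathway, and Phlda1 (-0.14). Singled out for their values, the immediate-early genes Fos (-0.91) and Egr1 (-0.66) were the lowest, and both varied widely: Fos stood at 8.30, 29.0 and 37.8 FPKM open and 6.07, 11.0 and 18.1 closed in mice 1, 2 and 3. The transcription factor Etv5 was the 1 gene with no overlap, at 17.6 ± 2.25 FPKM open and 13.8 ± 2.38 closed (log2 change -0.34, SE 0.15). None of them passed the test (limma adjusted p = 1 for each).

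For Lrrc3b and Lrrc3, a list of 53 other membrane proteins with leucine-rich repeats stood beside them. Of these, 51 had a row and 28 reached the floor. Limma called 0, with 1 of 28 at an unadjusted p under 0.05 (Lrrn2, log2 change 0.46), beside 1.45% of all rows. Below 0 were 14 of 28. The most abundant were Islr (-0.15), Lingo1 (0.10), a protein of neurons, and Lrrn1 (0.27). Lrrc4b, a synaptic adhesion protein, was the 1 gene of 28 with the closed side lower and no overlap, beside 2.09% of all rows. It stood at 2.75 ± 0.645 FPKM open and 1.98 ± 0.255 closed (log2 change -0.32, SE 0.16). With 28 genes, neither count of 1 can be told apart from these shares.

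**Figure D4:**
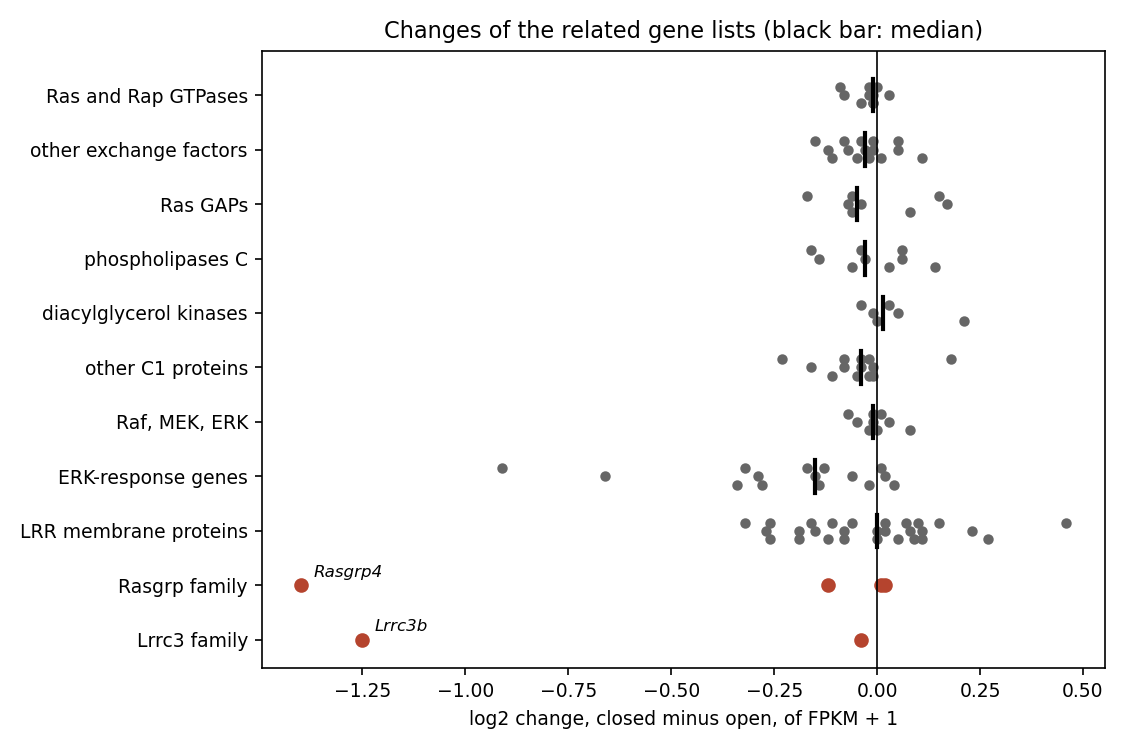
Log2 change of FPKM + 1, closed minus open, of each gene that reached the floor in 9 lists of related genes (points, with the list median as a black bar) and of the 6 members (red). List medians lie between -0.15 and 0.01, with Rasgrp4 at -1.40 and Lrrc3b at -1.25.

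The rows most like Rasgrp4 over the 6 libraries, by Pearson r of log2(FPKM + 1) among 14681 rows, were Myo1d (0.978), Pcp4l1 (0.974), S100a5 (0.973), Fam84a (0.972) and S100a3 (0.971). Those most like Lrrc3b were Rab37 (0.993), S100a3 (0.989), Pcp4l1 (0.984), S100a5 (0.982) and 1500017E21Rik (0.982). S100a5, which encodes a calcium-binding S100 protein of the sensory neurons, its neighbour S100a3 and Pcp4l1 were on both lists and were called in the same contrast. Rasgrp4 and Lrrc3b correlated at 0.97 with each other. Rasgrp4 correlated at 0.08, -0.04 and 0.48 with Rasgrp1, Rasgrp2 and Rasgrp3, and Lrrc3b at 0.09 with Lrrc3. These points share 3 mice and fall into 2 sides, so a high r mostly restates the side difference.

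The other 4 of these similar rows were not called. Their changes on log2(FPKM + 1) were smaller, at -0.30 (Myo1d), -0.27 (Fam84a), -0.37 (Rab37) and -0.75 (1500017E21Rik). That scale shrinks the change of low genes such as 1500017E21Rik, with means of 2.20 FPKM open and 0.89 closed. The unconventional myosin Myo1d stood at 14.4 to 15.7 FPKM open and 12.0 to 12.3 closed. Fam84a stood at 2.52 to 2.82 open and 1.98 to 2.04 closed. Rab37, a GTPase of secretory vesicles, stood at 1.65 to 1.92 open and 1.07 to 1.18 closed, and 1500017E21Rik at 1.91 to 2.60 open and 0.882 to 0.917 closed. In none of the 4 did the sides overlap, which a choice by likeness to Rasgrp4 or Lrrc3b favours.

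The cell types in which the family is known were looked for by their markers. Of 14 mast cell genes 3 reached the floor, and they are also expressed outside mast cells: Hdc (-0.05), Gata2 (0.09) and the receptor Kit (0.01). The summed list was 51.3 to 59.8 FPKM on the open side and 52.0 to 67.4 on the closed side. The defining proteases were near 0, with Cma1 at 0.104 to 0.366 FPKM open and 0.172 to 0.812 closed, Cpa3 at 0.0487 to 0.187 open and 0.0908 to 0.308 closed, and Tpsab1 at 0 in all 6 libraries. The protease Tpsb2 was also far below the floor, at 0 to 0.0878 open and 0.170 to 0.245 closed. Tpsg1 went the other way, at 0.0385 to 0.0598 open and 0 to 0.0372 closed. The remaining proteases of the list were split too. The mean of Mcpt4 was 0.0998 FPKM open and 0.305 closed, that of Mcpt1 0.0274 and 0.0125, and that of Mcpt2 0.0377 and 0.0268. The 3 genes that reached the floor overlapped between the sides, as did the summed list. No other marker list had a gene at 0 in all libraries.

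The summed levels of the other blood cell lists overlapped between the sides too. Neutrophil genes, led by S100a9 and S100a8, summed to 693.4 to 1143 FPKM open and 613.5 to 1219 closed. Of their 13 members at the floor, 11 were above 0 and 2 below, with a median log2 change of 0.35. Limma called 0, and 2 were at an unadjusted p under 0.05 (1.45% of all rows), Mmp8 higher and Ltf lower. T cell genes, the setting of Rasgrp1, summed to 4.40 to 5.33 open and 4.80 to 5.46 closed. B cell genes, the setting of Rasgrp3, summed to 17.4 to 28.7 open and 14.7 to 22.2 closed. Platelet genes, the setting of Rasgrp2, summed to 22.3 to 23.8 open and 18.4 to 30.1 closed. Of the 4 members at the floor, 1, Itga2b, was higher on the closed side with no overlap, beside 1.28% of all rows. It stood at 5.48 to 6.51 FPKM open and 6.62 to 7.71 closed, a log2 change of 0.17 (SE 0.12).

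Macrophage genes, of another myeloid cell, summed to 96.9 to 119.0 FPKM open and 82.7 to 102.4 closed. All 8 that reached the floor were below 0, with a median log2 change of -0.16, and 2 were lower in 3 of 3 mice with no overlap: Csf1r, the growth factor receptor of these cells, at 17.6 ± 0.896 FPKM open and 14.9 ± 1.61 closed, and Cd68 at 19.4 ± 0.532 and 16.7 ± 1.66. None was called, and 0 of 8 were at an unadjusted limma p under 0.05. Over all rows, 2.09% had the closed side lower with no overlap, and 9.18% were lower in 3 of 3 mice. Horizontal basal cell genes leaned the same way, with 8 of 8 below 0 (median -0.25). So did endothelial genes, with 8 of 8 (median -0.18), and ensheathing glia genes, with 8 of 9 (median -0.16). Neutrophil and mature neuron genes leaned the other way. The part of the macrophage genes in the Rasgrp4 difference was not tested.

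Among 14 marker lists, 110 members reached the floor. Limma called 0, and 11 were at an unadjusted p under 0.05, where a gene on 2 lists, such as Ltf, counts in each, beside 1.45% of all rows. Mature olfactory sensory neuron genes summed to 4174 to 5832 FPKM open and 5450 to 6316 closed, and immature neuron genes to 974.1 to 1370 open and 1106 to 1218 closed. Of the 12 mature neuron genes at the floor, 11 were above 0 (median 0.26). Higher in 3 of 3 mice were 4 of them, beside 7.41% of all rows. Lower in 3 of 3 was 1, Slc17a6, beside 9.18% of all rows. At an unadjusted limma p under 0.05, 1 was lower on the closed side, Slc17a6 (log2 change -0.44), and 1 higher, Ano2 (0.48). Of the 10 immature neuron genes 7 were above 0 (median 0.05). Summed levels were apart with the closed side lower in 2 lists. Genes of Bowman's glands and other secretory cells summed to 3112 to 3622 FPKM open and 469.9 to 1371 closed. Of these, 6 of 10 were at an unadjusted p under 0.05 and lower on the closed side, among them the odorant-binding proteins Obp1a and Obp2a. The other 4 had log2 changes of -0.16 (Sox9), -0.08 (Sox10), -0.12 (Aqp5) and 0.00 (Muc5b). The summed level of the whole gland list thus was low in the libraries where Rasgrp4 and Lrrc3b were low, and its part in their difference was not tested. Sustentacular cell genes summed to 4174 to 5311 open and 3918 to 4102 closed, a narrow gap in a sum led by Cyp2a5 and Cyp2g1. Of their 11 members 0 were at an unadjusted p under 0.05, 0 had sides that did not overlap and 3 were above 0.

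**Figure D5:**
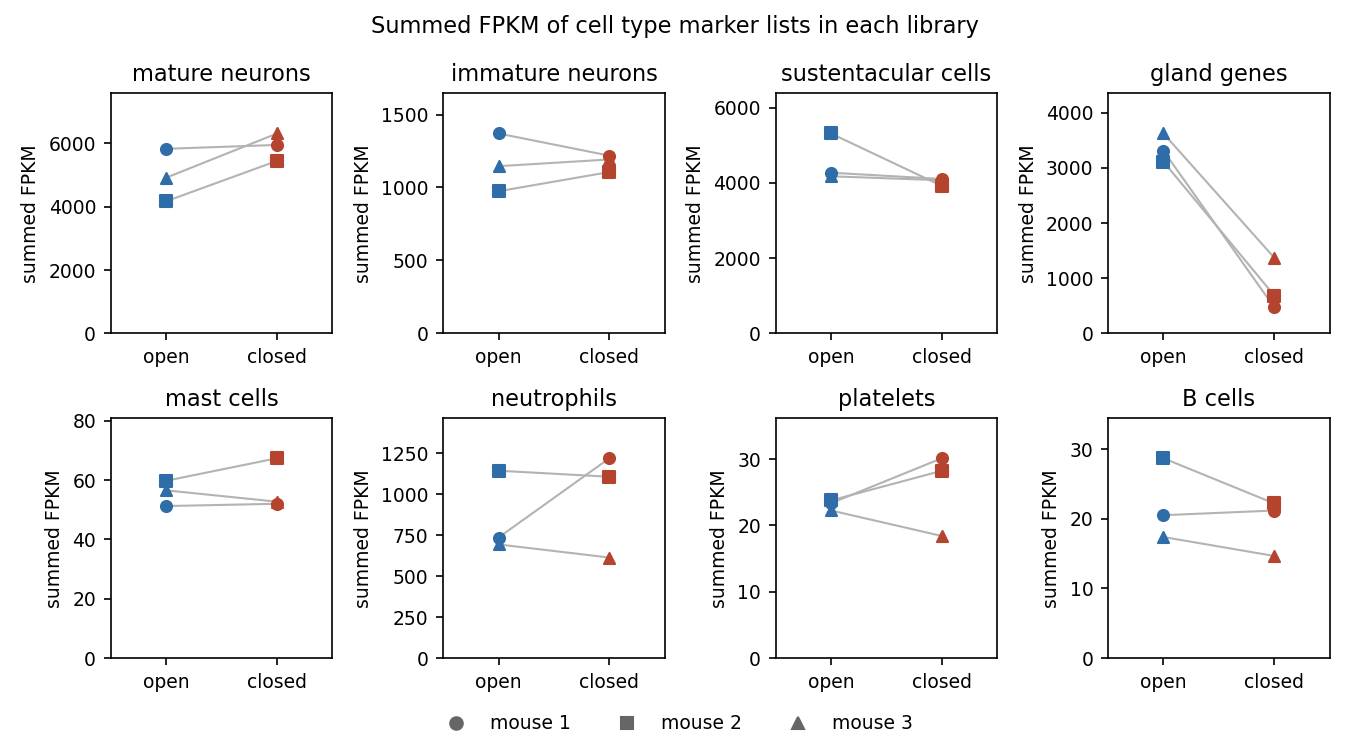
Summed FPKM (vertical axis, from 0) of 8 cell type marker lists in the open and closed library of mice 1, 2 and 3, joined by mouse. The gland and sustentacular sums do not overlap between the sides, and those of mast cells, neutrophils, platelets, B cells and both neuron lists do.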

How the data were processed

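Transcripts of olfactory mucosa were measured in 6 libraries, 1 closed and 1 open from each of 3 mice. The authors deposited 1 FPKM value for each gene and library, made with Cufflinks on build mm9 per the submitters' processing notes. The sources used here name no aligner, annotation or version. Per a second deposited table, each library has a count of reads, the fraction of reads aligned (printed as a percent), a score for RNA integrity and coverage, and the 28S over 18S ratio. Per the labels' protocols, RNA was extracted with a Qiagen kit, and the library kit was TruSeq.

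The 14788 of 24315 rows that averaged 1 FPKM or more were compared on log2(FPKM + 1) with limma 3.58.1 in R 4.3.3 (lmFit, eBayes with trend), two-sided, with Benjamini-Hochberg adjustment over all 14788 rows and a threshold of 0.05. A log2 change is closed minus open. Other tables were made with Python 3.11.15. The fit was tested on simulated data. In 27 rows the symbol had become a date. Without the block, both libraries of a mouse are treated as independent.

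The comparison was set without the mouse as a block, and the block is an alternative. Same-mouse libraries deviated from their side means with correlations over rows of 0.15, 0.08 and 0.21, against -0.17 to 0.01 for other pairs, and the deposited sheet pairs them.

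The members and gene lists were chosen with earlier results of these data known. Named genes are the members, the 3 most abundant members of a list, neighbours, the 5 most similar rows, and list members at 0. A gene that this rule names is not reported here. Fos, Egr1, Etv5, Lrrn2, Lrrc4b, Mmp8, Ltf, Obp1a, Cma1, Cpa3, Tpsb2, Csf1r, Itga2b, Sox9, Sox10, Aqp5 and Muc5b were named after their values were seen, and Omp and Cyp2g1 as markers of the tissue. Also named after their values were seen were Dgki, Dgkg, Dgkk, Tpsg1, Mcpt1, Mcpt2, Mcpt4, Slc17a6 and Ano2. Similarity left out small RNA rows, the members and rows with a date for a symbol. Gene positions and transcripts come from GENCODE M21 on GRCm38, and promoters from RefSeq on GRCm38.p6. The files carry symbols only, so no position was converted.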

Additional observations from a re-analysis of the deposited data

How the results depend on the processing

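In 20 alternatives (pseudocounts, floors, scaling, small RNA rows left out, libraries or mice left out, the mouse as a block), 0 of the 4 relatives passed the test wherever they had a value. A floor of 5 FPKM left no row for them or for Rasgrp4. The number of rows called lower was 6 and became 3 with no floor, and 3 to 10 with 1 library left out. The number called higher was 1, became 0 without small RNA rows, with or without the replicate block, and was 1 to 2 with 1 library left out. With the replicate block and a mouse left out, rows called lower numbered 10 without mouse 1, 3 without mouse 2 and 20 without mouse 3, where 3 were called higher. The replicate block changed the calls of Rasgrp4 and Lrrc3b and no call of a relative.

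The sign of 3 relatives turned, always near 0. Rasgrp1, at 0.01, ran from -0.07 to 0.11 with 1 library left out (-0.07 without closed replicate 1, -0.06 without open replicate 1, -0.01 without open replicate 2) and was -0.15 in the replicate block without mouse 1. Rasgrp2, at 0.02, ran from -0.07 to 0.11 (-0.06 without closed replicate 1, -0.07 without open replicate 3) and was -0.02 in the block without mouse 3. Lrrc3, at -0.04, ran from -0.10 to 0.01 (0.01 without closed or open replicate 1) and was 0.06 in the block without mouse 1. Rasgrp3 ran from -0.23 to -0.06 with 1 library left out and was -0.01 in the block without mouse 2.

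Rasgrp4 stayed below 0, at -1.93 with a pseudocount of 0.1, -1.65 with 0.5 and -1.09 with 2, as the scale itself sets, at -1.51 to -1.32 with 1 library left out and at -1.60 in the block without mouse 1. Lrrc3b ran from -1.33 to -1.15 with 1 library left out and, in the block, was -1.34 without mouse 1, -1.35 without mouse 2 and -1.06 without mouse 3. For each moved value the cause was not tested unless stated. Levels near 1 FPKM limit what can be said of Rasgrp1, Rasgrp2 and Rasgrp3.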
